A study of Mus musculus with 36 samples.

Results

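The 10 genes followed here serve the endoplasmic reticulum (ER) stress and secretory load response of mouse submandibular glands, and all 10 were found in the single-cell tables, among 29502 genes, and in the bulk tables, among 46407 genes. The list was Xbp1, Bhlha15, Hspa5, Hsp90b1, Pdia4, Pdia6, Dnajb9, Herpud1, Sdf2l1 and Creld2, and the rule is a list of names that uses no measured value. Single cells were profiled by Drop-seq, in which transcripts are captured at their 3′ ends and counted by unique molecular identifiers (UMIs), from 6 control glands at P40, 6 at P90, 7 double-mutant (DM) glands at P40 and 7 at P90, each gland from 1 mouse and with both sexes in every group. DM mice carried K14-Cre, the β-catenin gain-of-function (GOF) allele, the Bmpr1a loss-of-function (LOF) allele and the Cre-inducible R26-EYFP reporter, whereas control mice carried K14-Cre and the reporter only. K14 is active in basal epithelial cells, so that acinar cells of DM glands need not carry the mutations themselves. All mice were on a C57BL/6 background. Bulk mRNA-seq came from 1 control gland at P70 and 1 DM gland at P100.

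Secretory cells fold their cargo in the ER. When unfolded protein accumulates there, the sensors IRE1, PERK and ATF6 set off the unfolded protein response: IRE1 splices the mRNA of XBP1 into that of an active transcription factor, ATF6 is released as a factor by proteolysis, and PERK slows translation. XBP1 is required for the full secretory capacity of plasma cells and exocrine acinar cells. Bhlha15 encodes MIST1, a basic helix-loop-helix factor that shapes the granule-filled apical cytoplasm of serous acinar cells. Counts of Xbp1 RNA do not separate its spliced from its unspliced form.

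The 10 members fall into 3 roles. Xbp1 and Bhlha15 are the transcription factors. Hspa5 (BiP, the ER member of the HSP70 family), Hsp90b1 (GRP94, the ER member of the HSP90 family), the protein disulfide isomerases Pdia4 and Pdia6, and the BiP partners Dnajb9 and Sdf2l1 act in folding. Herpud1 serves ER-associated degradation, and Creld2 is a secreted ER stress-inducible protein.

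Factors of this pathway bind short promoter elements, and the stretches that hold them in 5 members are shown because they are what these genes share in sequence. Promoters were read from the RefSeq table of GRCm38.p6, from 250 bases before to 50 after each start site, and all 10 members had 1 window each. The ER stress response element (ERSE, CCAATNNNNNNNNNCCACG), searched on both strands, stood in 37 of 27025 genes (0.137%), among them Hspa5, Hsp90b1, Pdia6 and Creld2. ERSE-II (ATTGGNCCACG) stood in 12 genes (0.0444%), Herpud1 among them. The letters of the element are in capitals below, each stretch 5′ to 3′ on the strand named.
Hspa5 (chr2:34772020-34772048, + strand, ERSE): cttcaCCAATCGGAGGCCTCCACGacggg
Hsp90b1 (chr10:86705633-86705661, - strand, ERSE): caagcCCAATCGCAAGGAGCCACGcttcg
Hsp90b1 (chr10:86705528-86705556, + strand, ERSE): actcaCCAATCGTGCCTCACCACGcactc
Pdia6 (chr12:17266486-17266514, + strand, ERSE): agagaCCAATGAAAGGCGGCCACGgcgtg
Creld2 (chr15:88819515-88819543, - strand, ERSE): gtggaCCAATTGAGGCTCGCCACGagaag
Herpud1 (chr8:94386368-94386396, + strand, ERSE-II): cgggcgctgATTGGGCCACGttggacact
The elements lay within the 212 bases before the start site. The XBP1-type core TGACGTG stood in 601 genes (2.22%) and in 1 member, Hspa5. The E-boxes CAGCTG (18.3% of genes) and CATATG (4.48%) were in none of the 10 windows. A match is a run of letters, not a measured site, and the missing letters in a window of this length say nothing of the factor.

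Of 26987 barcodes, 23346 passed the limits of at least 100 genes and under 15% mitochondrial UMIs, and 14 barcodes occurred in more than 1 library. Total UMIs per gland ranged from 777537 to 7013325. Cells were clustered without the 10 members and without their pathway genes, and 24 of 29 clusters were named "X-like" from marker lists. In 2 libraries, DM_P40 replicate 1 and DM_P90 replicate 5, both of batch B11, Xist and Y-linked counts went against the sex on the label. Control glands of P40 and of P90 came from separate batches, and a stage difference among them is also one between batches. The gland was the replicate throughout, and the p-values measure the spread between glands.

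Across cell types, the summed level of the 10 members was highest in immunoglobulin (Ig)-producing-like cells, the plasma cells of the gland, and lowest in acinar-like cells, the main exocrine cells. Levels are given as UMIs per 1000000 UMIs of all genes (CPM), averaged over glands with at least 10 cells of a type. They compare clusters and carry no test. The sum was 9930 ± 1593 CPM (SD, n = 6 glands) in Ig-producing-like cells, 4286 ± 1582 (n = 11) in ductal Egf+-like cells, 2181 ± 680 (n = 26) in ductal Klk1+-like cells and 971 ± 210 (n = 26) in acinar-like cells. Egf+ cells are the granular duct cells that store growth factors and kallikreins and are abundant in males. In the same glands, acinar-like cells were below ductal Klk1+-like cells in 26 of 26 and below ductal Egf+-like cells in 11 of 11. Neighbours in the middle of the order, from T/NK-like (2078 ± 603) to basal tumor-like cells (2803 ± 853), lay within their SDs of each other.

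**Figure D1:**
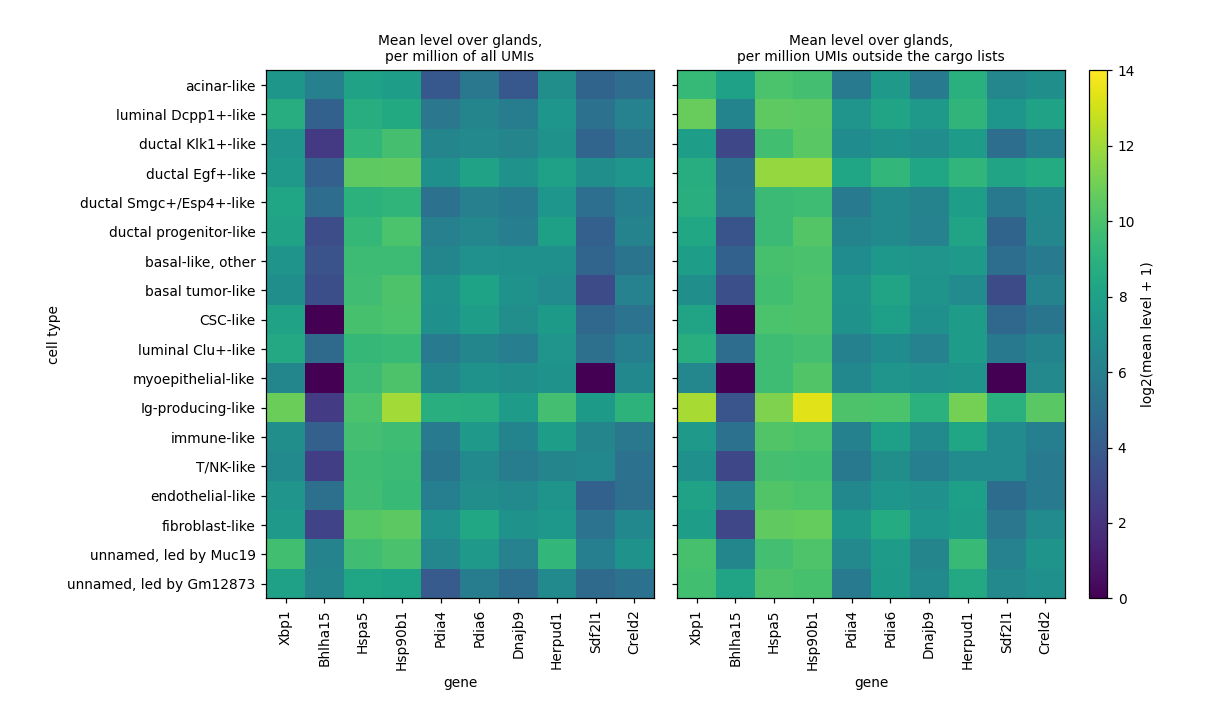
Mean level of each gene (columns) in each cell type (rows), as log2(level + 1), per 1000000 of all UMIs on the left and per 1000000 UMIs outside the secreted cargo lists on the right. Ig-producing-like cells are bright for Xbp1 and Hsp90b1, and ductal Egf+-like cells for Hspa5 and Hsp90b1. On the left, Bhlha15 is highest in acinar-like cells and the clusters led by Gm12873 and Muc19. On the right, it is highest in acinar-like cells and the cluster led by Gm12873.

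The genes Pdia4, Pdia6, Dnajb9, Herpud1, Sdf2l1 and Creld2 had their highest means in Ig-producing-like cells. Pdia4 was at 437 ± 235 CPM there and Pdia6 at 427 ± 162, against 13.5 ± 5.56 and 47.3 ± 23.4 in acinar-like cells. Creld2 (530 ± 311) and Sdf2l1 (194 ± 66.2) were followed by ductal Egf+-like cells (164 ± 107 and 126 ± 82.8). For Dnajb9 the order was not resolved, since its mean of 215 ± 264 in Ig-producing-like cells had a range of 55.1 to 737 CPM that covered the means of basal tumor-like (147 ± 83.2) and ductal Egf+-like cells (139 ± 50.8). Herpud1 was at 904 ± 302 in Ig-producing-like cells and at 620 ± 298 in the cluster led by Muc19, and at 253 ± 81.3 in ductal Egf+-like cells, the next in order.

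The order depended on what a level was divided by. Transcripts of the secreted cargo itself made up 74.7% of acinar UMIs, 73.8% in luminal Dcpp1+-like, 58.5% in Ig-producing-like and 55.6% in ductal Egf+-like cells, against 28.5% in ductal Klk1+-like and 3.44% in basal tumor-like cells. Per 1000000 UMIs outside the cargo lists, the sum was 3844 ± 632 in acinar-like cells and 3122 ± 1044 in ductal Klk1+-like cells, and acinar-like cells were now the higher in 22 of 26 glands. It was 6410 ± 1566 in luminal Dcpp1+-like cells, which secrete demilune and parotid-type proteins. Ductal Egf+-like cells (10000 ± 4320) and Ig-producing-like cells (24227 ± 4896) stayed above acinar-like cells in 11 of 11 and 6 of 6 glands. Thus acinar-like cells moved from the lowest of the named types into the upper part of the order, whereas the 2 named types with the highest means were the same on both scales. Over all UMIs the second place was not resolved, with 3955 CPM in the unnamed cluster led by Muc19 and 3795 in fibroblast-like cells. Ductal Egf+-like cells exceeded that cluster in 2 of 4 shared glands (mean log2 difference 0.01), and in 4 of 4 outside the cargo lists (1.14).

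**Figure D2:**
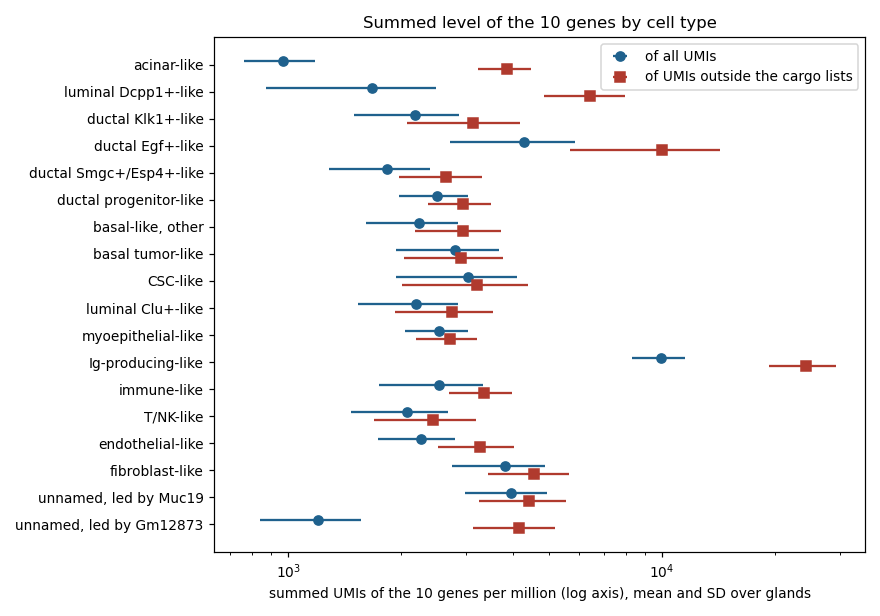
Summed level of the 10 genes by cell type, mean and SD over glands on a log axis, per 1000000 of all UMIs (circles) and per 1000000 UMIs outside the cargo lists (squares). The scales lie farthest apart in acinar-like (971 and 3844) and luminal Dcpp1+-like cells (1682 and 6410) and nearly coincide in basal tumor-like cells (2803 and 2899).

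The 2 transcription factors had different patterns. Xbp1 was at 1885 ± 465 CPM in Ig-producing-like cells, with 2646 CPM in the highest and 1380 in the lowest gland. Next came the unnamed cluster led by Muc19, a mucous cell gene (879 ± 183, n = 14), luminal Dcpp1+-like cells (420 ± 106, n = 14) and luminal Clu+-like cells (351 ± 118, n = 10). Over all UMIs, acinar-like cells had 169 ± 51.8 CPM, within the SDs of ductal Klk1+-like (154 ± 88.5) and ductal Egf+-like cells (189 ± 56.1). Outside the cargo lists, Xbp1 in ductal Egf+-like cells was above acinar-like cells in 1 of 11 glands (mean log2 difference -0.69). It was above ductal Klk1+-like cells in 11 of 11 (0.78). On that scale the mean difference of Egf+-like cells was -2.27 against luminal Dcpp1+-like cells and -1.38 against the cluster led by Muc19, in 4 glands each. Bhlha15 was at 66.8 ± 32.2 CPM in acinar-like cells against 4.29 ± 7.37 in ductal Klk1+-like cells, higher in 26 of 26 glands. Of the 5 unnamed clusters, those led by Gm12873 (82.7 ± 54.3, n = 18), by Muc19 (75.0 ± 64.4, n = 14) and by Gm15564 (57.8 ± 53.9, n = 17) were within an SD of acinar-like cells. The cancer stem cell (CSC)-like cells had no Bhlha15 UMI in any of 9 glands. In Ig-producing-like cells, in which Xbp1 was highest, Bhlha15 was found in 1 of the 6 glands (26.6 CPM).

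The share of cells with at least 1 UMI of a gene depends on the depth of each type, given beside it. Bhlha15 was found in a median of 19.7% of acinar-like cells per gland (median depth 2900 UMIs per cell) and in a median of 0% of ductal Klk1+-like cells (1237 UMIs per cell), where its highest share in a gland was 4.55%. Xbp1 was found in 83.3% of Ig-producing-like cells at 996 UMIs per cell and in 36.7% of the deeper acinar-like cells. Free RNA can give a UMI in a cell that does not express the gene, and the shares were not thinned to 1 depth.

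Hsp90b1 was at 4292 ± 1170 CPM in Ig-producing-like and 1523 ± 647 in ductal Egf+-like cells. Hspa5 was at 1041 ± 377 in Ig-producing-like and 1481 ± 585 in ductal Egf+-like cells, within their SDs of each other, and at 265 ± 54.0 in acinar-like cells. All 6 glands with enough Ig-producing-like cells were DM glands and 9 of the 11 with enough Egf+-like cells were controls, so that these types were not compared within glands. Set against the immune-like cells of the same 6 glands, which are mostly myeloid, Ig-producing-like cells had higher Xbp1, Hsp90b1, Pdia4, Herpud1, Sdf2l1 and Creld2 in 6 of 6 glands, with mean log2 differences of 3.76 for Xbp1 and 2.64 for Creld2. Hspa5 was higher in only 2 of these 6 glands, with a mean log2 difference of -0.18 ± 0.35. With the immunoglobulin and other cargo UMIs left out of the total, Hspa5 was also higher in 6 of 6 glands (0.89 ± 0.34).

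Over the 16 named cell types, several folding genes followed each other on both scales, whereas the place of Bhlha15 depended on the scale. These correlations describe 16 types that share libraries and differ in depth. Over all UMIs, Pearson's r of the log2 level was 0.94 between Hsp90b1 and Pdia4, 0.93 between Pdia4 and Dnajb9 and 0.87 between Hspa5 and Pdia6. Bhlha15 had negative r with Dnajb9 (-0.55), Pdia4 (-0.54), Hsp90b1 (-0.52), Pdia6 (-0.47) and Hspa5 (-0.43), and a positive one with Sdf2l1 (0.36). Per UMIs outside the cargo lists, r was 0.94 for Hsp90b1 and Pdia4, 0.94 for Pdia4 and Dnajb9 and 0.89 for Hspa5 and Pdia6. On that scale Bhlha15 had r = -0.14 with Dnajb9, -0.16 with Pdia4, -0.06 with Hsp90b1, 0.01 with Pdia6, 0.20 with Hspa5 and 0.56 with Sdf2l1, and r between Xbp1 and Hspa5 went from -0.01 to 0.54. The likeness to other genes was measured over all UMIs only. Among 7342 genes that reached 50 CPM in some type, the genes most like Xbp1 included Txndc5 (r = 0.92), an ER disulfide isomerase, H13, the signal peptide peptidase, Chac1 and the immunoglobulin gene Ighg2b. Those most like Bhlha15 were Rab3d (0.82), a small GTPase of secretory granules, Wfdc12, Pip, Slc31a2 and 2310057J18Rik. Those most like Hspa5 were the ER lectin chaperone Calr (0.92), Pdia6, Camk2d, Dnajb9 and Man1a.

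Tumor cells and plasma cells could be described only in DM glands. Ig-producing-like cells numbered 150 in DM and 12 in control glands, CSC-like cells 298 and 1, and luminal Clu+-like cells 321 and 0. The study itself listed Xbp1 among the genes that mark its Ig-producing cluster, and here Xbp1 took no part in naming it. The sum of the 10 members in Ig-producing-like cells was 11906, 11894 and 8192 CPM in DM_P90 replicates 5, 6 and 7 and 9491, 8769 and 9327 in DM_P40 replicates 5, 6 and 7, so that the stages overlapped.

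In the tumor epithelium the summed level of the members was within the SDs of that of other basal cells. Basal tumor-like cells had a sum of 2803 ± 853 CPM (n = 9), CSC-like cells 3022 ± 1082 (n = 9) and luminal Clu+-like cells 2193 ± 650 (n = 10), against 2234 ± 616 (n = 21) in the other basal-like cells. These others pool 3 unnamed sub-clusters, of 604 cells led by Esp18, Edn1 and Smoc2, of 162 cells led by the duct and demilune genes Klk1b4, Dcpp3 and Dcpp1, and of 99 cells led by Crisp1, Cyp2f2 and Cat. Within a gland, basal tumor-like cells exceeded the other basal-like cells in 8 of 9 glands for the sum and for Pdia6 (275 ± 197 against 172 CPM). These counts are over all UMIs, of which cargo made up 3.17% (P40) and 3.66% (P90) in basal tumor-like cells. In the other basal-like cells of DM glands cargo made up 22.7% and 6.32%, which lowers their CPM. Xbp1 was higher in CSC-like (267 ± 81.2 CPM) and luminal Clu+-like cells than in the other basal-like cells in 9 of 9 glands each. The median CSC-like cell held 686 UMIs and the median basal tumor-like cell 426, so that a level of 100 CPM stood for few counts per gland.

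To ask whether tumor growth altered the members within a cell type, UMIs were summed per gland and compared between DM and control glands with edgeR's quasi-likelihood test, with sex and stage as covariates and p-values adjusted over all genes (Benjamini-Hochberg). In acinar-like cells 0 of 10 members passed an adjusted p of 0.05, beside 1.5% of all 4259 genes tested, 0 passed an unadjusted p of 0.05, and DESeq2 called 0 as well. These sums left out the unnamed cluster led by Gm12873. It held 60 (P40) and 46 (P90) cells in control glands and 291 and 581 in DM glands. Acinar cargo made up 55.3% of its UMIs, and its summed members were at 1204 CPM, against 971 in acinar-like cells. No genotype test was run in that cluster alone. In acinar-like cells Xbp1 was at 107 to 208 CPM (median 167) in the 12 control glands and at 97.6 to 309 (median 161) in the 14 DM glands. Hspa5 was at 181 to 382 (median 256) and at 207 to 365 (median 248). The groups overlapped over nearly their whole range for both. Bhlha15 was at 44.4 to 86.8 (median 58.6) and at 40.2 to 209 (median 61.0), Dnajb9 at 3.53 to 20.2 (median 10.7) and at 4.74 to 36.1 (median 14.7), and Herpud1 at 71.2 to 172 (median 134) and at 46.3 to 209 (median 108). DM glands spread more widely than control glands for these 3 genes, with overlap of the groups. Their sums rested on fewer cells, 1539 at P40 and 948 at P90, against 2669 and 1776 in control glands. Median depths were 2387 and 1596 UMIs per cell, against 4618 and 2777. The part of counting error in this spread was not tested.

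The estimates themselves were smaller than their standard errors, except those of Dnajb9, Herpud1 and Hsp90b1. The log2 difference, DM minus control, was -0.00 ± 0.16 (SE) for Xbp1, 0.07 ± 0.15 for Bhlha15, -0.00 ± 0.16 for Hspa5, 0.19 ± 0.13 for Hsp90b1 and 0.04 ± 0.20 for Pdia4. Dnajb9, a J-domain partner of BiP that restrains IRE1, had the most positive estimate (0.45 ± 0.23, edgeR adjusted p = 0.38), and Herpud1 the most negative (-0.30 ± 0.17, adjusted p = 0.44). The median over the 10 members was 0.02, beside -0.03 over all genes tested. Acinar sums held other cells' transcripts in different amounts: the 3 tested plasma cell cargo genes rose in DM glands (Igha by 3.38 log2 units, edgeR adjusted p = 0.00179), their summed level ranging from 1.02 to 37.7 CPM in control and from 13.1 to 272 in DM glands, with 4 and 3 of 11 genes at 0. The part of such transcripts in the members' values was not tested.

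**Figure D3:**
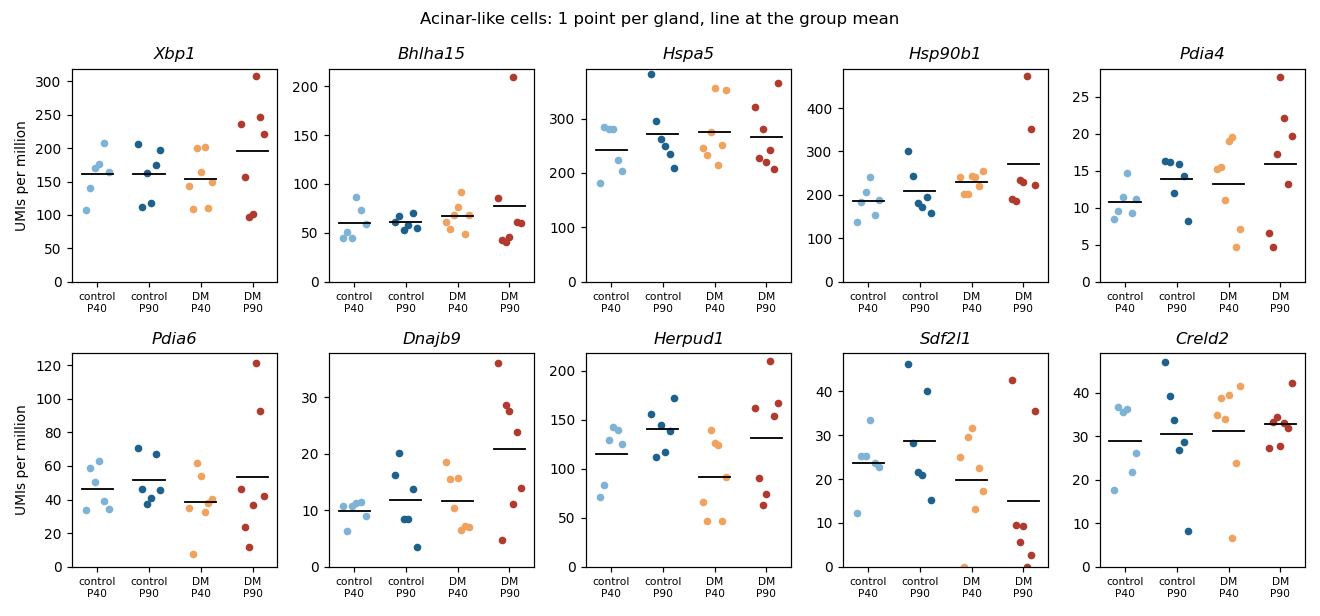
Level of each gene in acinar-like cells, 1 point per gland, in UMIs per 1000000 UMIs of all genes, with a line at the mean of each of the 4 groups. The groups overlap for all 10 genes, and 1 DM_P90 gland stands apart for Bhlha15 at 209 CPM.

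Stage called no member in acinar-like cells either. The log2 differences, P90 minus P40, ran from -0.22 ± 0.17 (SE, Xbp1) to 0.14 ± 0.21 (Pdia4) in control glands. In DM glands they ran from -0.22 ± 0.25 (Hspa5) to 0.70 ± 0.37 (Dnajb9), and the error reached 0.49 for Sdf2l1. With errors of this size, a change in a member could have been missed. Between P90 and P40, 0 of 10 members passed in the acinar-like cells of control glands, beside 10.6% of 4948 genes, and 0 of 10 in DM glands, where 0 of 2597 genes passed (0%), 138 had an unadjusted p under 0.05 and DESeq2 called 3 genes, none of them a member. Dnajb9 was at 6.53 to 18.5 CPM (median 10.3) in DM glands at P40 and at 4.74 to 36.1 (median 23.9) at P90, a log2 difference of 0.70 ± 0.37 (edgeR adjusted p = 0.83). Within P40 glands alone and within P90 glands alone, genotype called 0 of 10 members, beside 0.413% of 4358 and 1.31% of 3292 genes. The test of whether the genotype difference itself differed between stages called 0 of 10 members, beside 0.123% of 4872 genes, and DESeq2 called 0.

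For genotype, 1 gene of the other pathway lists passed in acinar-like cells. Of 21 tested ER chaperones and folding enzymes, 20 genes of ER-associated degradation, 21 of translocation and signal peptide cleavage, 11 of N-glycosylation, 6 UPR sensors, 10 genes of the PERK branch and 7 MIST1-associated genes, 0 passed in either direction. Among 25 genes of ER-to-Golgi transport, Sec23b, a coat protein of ER exit vesicles, rose by 0.67 ± 0.16. In P90 glands alone, Srp9 of the signal recognition particle rose (1.51 ± 0.31), 1 of 20 translocation genes tested. Of 13 immediate early genes, which respond to tissue dissociation, Ier3 (1.96 ± 0.35) and Egr1 (0.99 ± 0.22) rose.

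For stage in control glands, in which 10.6% of all genes passed, 5 genes of the pathway lists did. The translocon subunit Sec61g (1.80 ± 0.35) rose and Srp68 (-0.55 ± 0.18) fell, among 21 translocation genes. Ost4 (1.51 ± 0.25) and Tmem258 (0.61 ± 0.14), both of the oligosaccharyltransferase, rose among 11 N-glycosylation genes, and Copb2 of the COPI coat (-0.48 ± 0.14) fell among 25 transport genes. Of 14 cytosolic heat shock genes, Hspa1b (2.47 ± 0.44), Dnaja1 (0.84 ± 0.23) and Hspe1 (0.52 ± 0.17) rose. With library totals in place of TMM those that rose still passed, whereas Srp68 (-0.30) and Copb2 (-0.24) did not. None of 22 chaperones, 20 degradation genes, 8 UPR sensors, 10 genes of the PERK branch or 7 MIST1-associated genes passed.

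In all ductal cells together, 0 of 9 tested members passed, beside 3.08% of 5492 genes, 2 had an unadjusted p under 0.05, and DESeq2 called 0. Of the 9 estimates 8 were negative, with a median of -0.41 beside -0.04 over all genes. Library totals in place of TMM moved both, to -0.00 for the members and 0.34 for all genes, and gave Hsp90b1, Dnajb9 and Herpud1 positive estimates, so that only the position of the members against all genes was common to both scalings. The unadjusted calls were Hspa5 (-0.58 ± 0.25, edgeR adjusted p = 0.22) and Pdia6 (-0.60 ± 0.25, adjusted p = 0.20). Xbp1 alone was positive (0.11 ± 0.17). Hspa5 ranged from 411 to 1652 CPM (median 710) in control and from 367 to 1433 (median 601) in DM glands, and the groups overlapped.

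The make-up of the ductal cells moved with these estimates. Ductal Egf+-like cells, which had the highest Hspa5, were 16.5% to 80.1% of ductal cells in control males (median 48.2%) and 0% to 25.0% in DM males (median 7.29%). They were at most 7.76% in control and 4.26% in DM females. Sexes are as labelled. Without the 2 libraries at odds with those labels, the share was 3.77% to 25.0% (median 7.83%) in DM males and at most 1.9% in DM females. Hspa5 in ductal cells was at 758 to 1652 CPM in the 6 control males and at 411 to 662 in the 6 control females, with no overlap, whereas DM males (378 to 1433) and DM females (367 to 1103, and to 837 without those libraries) overlapped. In ductal Klk1+-like cells alone, 0 of 7 tested members passed, beside 0.406% of 1971 genes, with a median of -0.14, and in ductal progenitor-like cells 0 of 4, beside 1.29% of 854 genes.

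In the ductal sums of control glands, which pool the ductal types, 4 of 9 members did not overlap between the sexes. Counted after the data were seen, and given with no test, these 4 had all 6 male control glands above all 6 female ones, beside 46 of 5492 genes (0.838%) in that direction, and 185 genes had all males below all females. These were Hspa5, Dnajb9 (79.1 to 123 CPM in males, 34.9 to 77.9 in females), Herpud1 (185 to 310, 102 to 172) and Creld2 (98.8 to 186, 23.7 to 64.4). The other 5 overlapped, Hsp90b1 at 893 CPM or more in males and up to 1130 in females, Xbp1 at 127 to 217 and 108 to 217, and Pdia4, Pdia6 and Sdf2l1 likewise. In DM glands, 0 of 9 members had males above females without overlap, beside 0 of the 5492 genes (0%), and 1 gene had males below females. Without the 2 libraries at odds with their sex labels it was 0 of 9 members in either direction, beside 7 genes with males above and 26 with males below. Egf+-like cells were 16.5% to 80.1% of ductal cells in control males and at most 7.76% in control females, and their part in these differences was not tested. Within Smgc+/Esp4+-like cells, Hspa5 was at 301 to 410 CPM in control males and at 346 to 501 in control females, with overlap. Whether the sex difference itself differed between genotypes was not tested.

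In ductal cells 7 secretory pathway genes outside the list passed, where 3.08% of all genes did. Ppib, an ER prolyl isomerase (-0.71 ± 0.19), Edem2 of ER-associated degradation (-0.92 ± 0.26), the translocation genes Spcs2 (-0.72 ± 0.19) and Tram1 (-0.67 ± 0.17), Ddost of the oligosaccharyltransferase (-0.55 ± 0.16) and Cope of the COPI coat (-0.63 ± 0.16) fell, and Srp9 of the signal recognition particle rose (1.14 ± 0.28). These were 1 of 22 chaperones, 1 of 18 degradation genes, 3 of 20 translocation genes, 1 of 12 glycosylation genes and 1 of 23 transport genes tested. These calls depended on scaling: with library totals the 6 that fell had estimates from -0.51 to -0.16 and none passed, whereas Srp9 (1.53) passed. Of the 23 duct cargo genes tested 7 fell, with Klk1b5 at -2.36 ± 0.35, in a kallikrein family whose near-identical members can share reads.

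**Figure D4:**
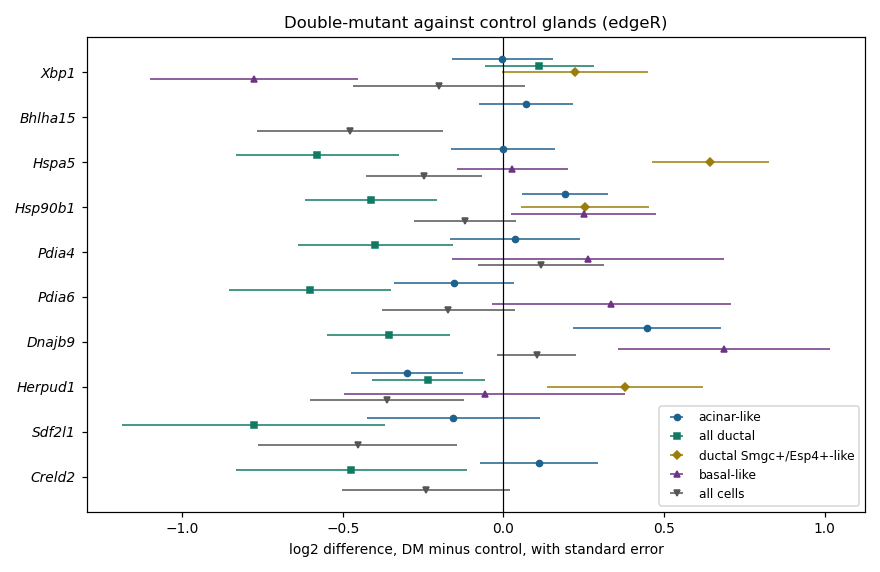
Log2 difference of each gene, DM minus control, with its standard error, in 5 sets of cells. Values right of 0 are higher in DM glands, estimates in all ductal cells lie left of 0 for 8 of 9 genes, and a gene too low to be tested in a set has no point.

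Hspa5 in ductal Smgc+/Esp4+-like cells was the single member to pass a test of genotype. This comparison was added after the data were seen. Smgc+ cells are duct cells of the immature and the female gland that secrete a mucin-like protein. Hspa5 was at 301 to 501 CPM (median 380) in the 12 control glands and at 425 to 1206 (median 546) in the 14 DM glands, and 10 DM glands exceeded the highest control gland. The log2 difference was 0.64 ± 0.18 (edgeR adjusted p = 0.0444). Of the 4 members tested 1 was called, beside 3.63% of 1183 genes called either way and 2.79% called higher, and DESeq2 called the same number. Herpud1 (0.38 ± 0.24), Hsp90b1 (0.25 ± 0.20) and Xbp1 (0.22 ± 0.23) had positive estimates that did not pass.

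The DM mean was higher within each split that the design allows. All DM glands exceeded all control glands in each of the 5 batches that hold both genotypes, B8, B9, B12, B13 and B14, with log2 ratios of the means from 0.33 in B9 to 1.52 in B14. These batches held few glands: 2 control and 2 DM glands in B8 and in B12, and 2 and 1 in B9. B13 held 1 control and 3 DM glands, and B14 held 3 and 1. Groups this small can separate by chance, and the share of all genes without overlap was not counted in any split. The splits reuse the glands of the test above. The highest values were those of DM_P40 replicate 7 (1206 CPM) and DM_P40 replicate 1 (1004 CPM), a library at odds with its sex label. Among P90 glands, controls were at 320 to 408 CPM and DM glands at 477 to 751, with no overlap, and among males, by label, controls were at 301 to 410 and DM glands at 425 to 1004, the last being that library. Among P40 glands 301 to 501 in controls overlapped with 425 to 1206 in DM glands, 5 of 7 of which exceeded all controls, and among females 346 to 501 overlapped with 477 to 1206, with 7 of 8 above. Counts were low, from 4 to 55 Hspa5 UMIs per control gland and from 5 to 131 per DM gland.

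The call itself was weak. It was lost without the 2 libraries at odds with their sex labels (0.53, edgeR adjusted p = 0.0920), without a filter on low counts (0.60, adjusted p = 0.43) and with batch as a covariate (0.56, adjusted p = 0.89). Leaving out any 1 of 12 of the 26 glands also lost it, with adjusted p from 0.0508 to 0.0821: these were control_P90 replicates 2, 3 and 6, control_P40 replicates 1, 4, 5 and 6, DM_P40 replicates 1 and 7 and DM_P90 replicates 3, 5 and 7, and the estimate then lay between 0.55 and 0.67. Markers of luminal Clu+ cells moved with it: their summed level in these cells ranged from 6061 to 37668 CPM (median 13619) in control and from 15361 to 68824 (median 37124) in DM glands, with 8 of 8 genes present in both. However, 4 of these genes also marked the Smgc+/Esp4+-like cluster itself, and control glands held 0 luminal Clu+-like cells. The sum is therefore no measure of tumor cells. Basal tumor markers had a median of 147 CPM in control and 391 in DM glands, and CSC markers one of 19.3 and 35.5. Their part in the Hspa5 difference was not tested.

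**Figure D5:**
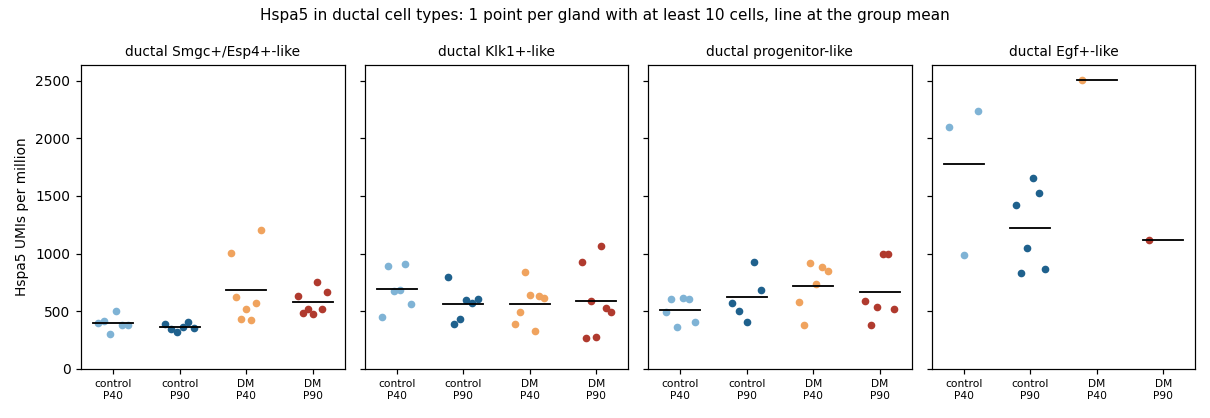
Hspa5 level in 4 ductal cell types, 1 point per gland with at least 10 cells, in UMIs per 1000000 UMIs of all genes, with a line at the mean of each group. In Smgc+/Esp4+-like cells the P90 control glands (320 to 408) lie below the P90 DM glands (477 to 751), and the Egf+-like cells of few DM glands could be counted.

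In basal-like cells 0 of 7 tested members passed, beside 9.11% of 1559 genes, 2 had an unadjusted p under 0.05, and DESeq2 called 0. Xbp1 was at 116 to 359 CPM (median 152) in 9 control and at 45.3 to 266 (median 127) in 13 DM glands, a log2 difference of -0.78 ± 0.32 (edgeR adjusted p = 0.14). Dnajb9 was at 14.4 to 149 CPM (median 72.7) and at 63.5 to 276 (median 131), a difference of 0.69 ± 0.33 (adjusted p = 0.21). Both overlapped between genotypes. Among 12 tested genes of the cytosolic heat shock list 3 rose, Hspa1b (2.03 ± 0.44) and Hspa1a (1.92 ± 0.31), which are near-identical and can share reads, and Hspb1 (1.14 ± 0.33), and among 4 tested genes of the PERK branch Ddit4 rose (1.78 ± 0.49). Of 13 translocation genes Spcs2 fell (-0.92 ± 0.25), though not with library totals (-0.47). None of 8 ER chaperones passed.

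Summed over all cells of a gland, 0 of 10 members passed, beside 21.9% of 10488 genes, 0 had an unadjusted p under 0.05, and DESeq2 called 0. At this level a smaller share of cells of a type and less RNA per cell cannot be told apart. Bhlha15 had the most negative estimate (-0.48 ± 0.29, edgeR adjusted p = 0.23), with 31.4 to 67.1 CPM (median 39.9) in control and 22.4 to 65.01 (median 46.0) in DM glands. Without DM_P90 replicate 7 it passed (-0.72, adjusted p = 0.0266). The sign of the members depended on scaling: the CPM medians of Hspa5 were 396 in control and 492.7 in DM glands, whereas the TMM-scaled difference was -0.25 ± 0.18. With library totals in place of TMM, the median of all genes shifted to 0.68 and Hspa5 (0.40), Hsp90b1 (0.58), Pdia4 (0.85) and Dnajb9 (0.83) passed, the first 2 with estimates below that median.

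In whole glands, where 21.9% of all genes passed, genes of the other pathway lists passed in both directions. Of 21 genes of ER-associated degradation 3 fell, led by Vcp, the ATPase that extracts its substrates (-0.74 ± 0.22). Of 21 translocation genes 5 fell, with the signal peptidase subunit Spcs2 at -0.86 ± 0.29. Among 26 chaperones Ero1lb (-0.91 ± 0.29) and Fkbp2 (-0.71 ± 0.26) fell, and Mzb1, a chaperone of plasma and B cells, rose by 2.88 ± 0.62 together with 4 of 6 plasma cell cargo genes. In the MIST1-associated list of 7 genes, Rab27b, a GTPase of secretory granules, fell (-0.98 ± 0.25). Tmem258 (-0.57), Tmed10 of ER-to-Golgi transport (-0.60) and the mitochondrial chaperones Hspd1 (-0.71) and Hspe1 (-0.64) fell as well. Of 15 genes of the PERK branch, the cystine transporter gene Slc7a11 (2.97 ± 0.62) and Ddit4 (0.45 ± 0.16) rose. Of 23 duct cargo genes 16 fell. With library totals Mzb1, Slc7a11, Ddit4, Ero1lb (-0.47) and Rab27b (-0.51) still passed, whereas Vcp (-0.09), Spcs2 (-0.38), Fkbp2 (-0.21), Tmem258 (0.01), Tmed10 (-0.06), Hspd1 (-0.11) and Hspe1 (-0.03) did not.

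In acinar-like cells, the share of acinar cargo was set against the level of 3 members per 1000000 UMIs outside that cargo, in 6 relations. The denominator leaves out that cargo, so that a gene constant over all UMIs has a positive r by construction. Cargo share ranged from 62.5% to 70.2% in the 12 control glands and from 49.8% to 66.8% in the 14 DM glands. In DM glands, Hspa5 had a positive relation with cargo share (Pearson's r = 0.55, permutation p = 0.00672, adjusted p = 0.0403; Spearman's rho = 0.64, permutation p = 0.0153, adjusted p = 0.0916). Without the 2 glands farthest from the median share, r was 0.35, and it was 0.14 over the 7 P40 glands and 0.66 over the 7 P90 glands, so that the relation rested on those glands. Per UMIs of all genes, r was 0.26 (adjusted permutation p = 0.44) for Hspa5 in DM glands, -0.57 (adjusted permutation p = 0.26) for Hspa5 in control glands and -0.81 (adjusted permutation p = 0.28) for Bhlha15 in DM glands. Outside the cargo, r for Hspa5 in control glands was -0.25 (adjusted permutation p = 0.74). Bhlha15 had r = -0.66 in DM glands (adjusted permutation p = 0.40) and 0.13 without those 2 glands, and Xbp1 had r = -0.02.

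Bulk RNA gave 1 library per genotype, of different age, with 34515744 and 34729551 reads on genes, so that no test across glands was possible and the intervals (exact, 95%) cover counting error only. Transcripts per 1000000 transcripts (TPM) correct for gene length. The order of the members was Bhlha15 (82.4 TPM), Hspa5 (72.5), Xbp1 (67.7), Herpud1 (61.4), Hsp90b1 (35.5), Pdia6 (18.2), Creld2 (14.4), Sdf2l1 (11.1), Pdia4 (8.56) and Dnajb9 (8.07) in the control gland. In the DM gland Xbp1 was at 101 TPM, 1.49 times the control (1.45 to 1.54), Pdia4 at 13.6 (1.59, 1.46 to 1.74), Creld2 at 22.3 (1.54, 1.41 to 1.69) and Dnajb9 at 12.3 (1.52, 1.37 to 1.69). Herpud1 was lower, at 37.3 TPM (0.607, 0.582 to 0.634), and Bhlha15 was at 83.6 (1.02, 0.989 to 1.04).

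Thus 8 of 10 members had a higher value in the DM library by more than counting error. The share of all genes that did so was not counted, so that this number does not set the members apart. For a 2-fold change 0 of 10 passed, beside 3.5% of 13276 genes 2-fold higher and 7.46% 2-fold lower. The median log2 ratio of the members was 0.39, beside -0.29 over all genes, 0.15 over 26 ER chaperones, 0.12 over 21 translocation genes, 0.11 over N-glycosylation, -0.02 over ER-associated degradation, -0.03 over ER-to-Golgi transport genes and -0.09 over 11 UPR sensors. The PERK branch had a median of -0.72, with 6 of 16 genes over 2-fold lower. Secreted cargo took 88.6% of control and 88.4% of DM TPM, but 20 of 23 duct cargo genes were over 2-fold lower and 9 of 10 plasma cell cargo genes over 2-fold higher in the DM gland. In these bulk libraries, too, cell make-up and RNA per cell cannot be told apart.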

How the data were processed

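Single cells of 26 submandibular glands were profiled by Drop-seq after enzymatic dissociation, live-cell sorting and methanol fixation. UMI counts for each barcode and gene were deposited by the authors, who made them with Drop-seq tools and STAR on mm10 with a GENCODE annotation, keeping barcodes above the knee of the read distribution. The 2 bulk tables hold read counts per gene that the authors made with STAR and featureCounts 1.6.0, per the file headers. Methanol fixation, dissociation and capture at 3′ ends affect which RNAs are counted, and bulk RNA came from undissociated tissue. Libraries with surface-protein tags from 4 further glands were not used here.

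Cells were kept at 100 or more genes and under 15% mitochondrial UMIs. They were clustered in scanpy 1.11.5 (2000 variable genes, 30 components, Leiden resolution 1) with the 10 members and their pathway genes held out, and named from fixed markers. Doublets (127 called, 0.544%) were kept, and left out as an alternative. A gland entered a comparison with at least 10 cells of the type. Counts were summed per gland and fitted across all genes with edgeR 4.0.16 (TMM, filterByExpr, quasi-likelihood test), with sex and stage as covariates and Benjamini-Hochberg adjustment over all genes tested. Calls needed an adjusted p under 0.05, and a fitted log2 difference is DM minus control unless stated. DESeq2 1.42.0 was an alternative. The fitting code was tested on simulated data. TPM were computed here from the deposited bulk counts and gene lengths, and bulk genes needed 10 reads in both libraries. Correlations used 100000 permutations, two-sided.

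The members and lists were chosen with earlier results of these data known. The number of members called is given for every comparison, whereas estimates are printed for some members only. The genes named from a list are among the 4 with the largest change of those called, though not each of these is named. The genes most like Xbp1, Bhlha15 and Hspa5 are the 5 with the highest correlation of log2(mean CPM + 1) over named types, of which 1 is not reported here. The comparisons within Smgc+/Esp4+-like cells and between them and Klk1+-like cells, the count by sex in ductal cells, and the library totals for list genes and the member correlations outside the cargo were chosen after seeing the data.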

Additional observations from a re-analysis of the deposited data

Results flagged for a closer look

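In 80 groups of 6 or 7 glands tested for a gland far from the others (Dixon's criterion), 5 were found, about as many as the 1 in 20 that chance gives. Bhlha15 in acinar-like cells was at 209 CPM in DM_P90 replicate 5, a library at odds with its sex label, against at most 85.4 CPM in the other DM_P90 glands. The median cell of that library held 408 UMIs, and the highest Herpud1 value of a DM_P90 gland in acinar-like cells was also 209 CPM. The number of UMIs behind the Bhlha15 value is not given here. Pdia4 in ductal cells was at 174 CPM in control_P40 replicate 5, with the next gland at 85.9. In DM_P40 replicate 3, ductal Pdia6 was at 240 CPM (next 109) and ductal Sdf2l1 at 131 CPM (next 45.7). Ductal Dnajb9 was at 20.1 CPM in DM_P40 replicate 6, below the next lowest gland at 68.5.

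The genotype difference of Hspa5 was larger in Smgc+/Esp4+-like than in Klk1+-like cells. Within a gland, the log2 level in Smgc+/Esp4+-like minus that in Klk1+-like cells was 0.17 ± 0.66 (SD, n = 14) in DM glands and -0.68 ± 0.37 (n = 12) in control glands. The means differed by 0.85 (permutation test with 100000 resamples, two-sided, p = 0.00054). This comparison was chosen after seeing the data, for the 1 member already called in Smgc+/Esp4+-like cells. Its p thus reuses the difference that led to it and is no separate support. It is given for Hspa5 only, with the 2 libraries at odds with their sex labels included.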

How the results depend on the processing

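In acinar-like cells 0 members passed under each of 13 alternatives and in each of the 26 fits that left out 1 gland, and so it was for stage in control and DM glands and for genotype by stage, though sums thinned to equal totals tested only 4 members in 3 of these. Elsewhere the count of members called changed under some settings. Without a filter on low counts 1 passed in ductal cells (Pdia6, lower, edgeR adjusted p = 0.0399). Library totals in place of TMM gave 1 in ductal (Xbp1, 0.53), 1 in basal (Dnajb9, 1.07) and 4 in whole glands. At resolution 0.7, at which a cluster led by Gm12873 joined the ductal cells, 2 passed there (Xbp1 0.79, Bhlha15 1.62). In whole glands, leaving out 1 gland gave 0 to 1. The cause was not tested.

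Replicate numbers do not pair the glands: over 37 same-number pairs r ran from -0.23 to 0.37, 9 were over 0.1, and 6 of 26 glands correlated best with their own number. The replicate block gave 1 member in whole glands (Bhlha15, -0.79, edgeR adjusted p = 0.0334) and lost Hspa5 in Smgc+/Esp4+-like cells (0.49, adjusted p = 0.25). Hspa5 there was also lost with no filter (0.60), with batch (0.56) and without the sex-mismatched libraries (0.53), and ran from 0.55 to 0.72 with 1 gland left out. Thinned sums were too low to test it.

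Acinar estimates near 0 changed sign, none of them called. Xbp1 was 0.0497 with DESeq2, 0.115 with library totals, 0.00382 without cargo, 0.325 thinned, 0.0353 without the sex-mismatched libraries, 0.0564 at resolution 0.7, 0.213 at P90 alone and -0.0767 to 0.0363 with 1 gland left out. Hspa5 was 0.0544 with DESeq2, 0.0839 with library totals, 0.00695 without cargo, 0.152 thinned, 0.0683 without the sex-mismatched libraries, 0.0352 at resolution 0.7, 0.0845 at P40 alone and -0.0655 to 0.0545 with 1 gland left out. Without a filter, Bhlha15 was -0.0966, Hsp90b1 -0.000372, Pdia4 -0.0762 and Creld2 -0.0311. With the replicate block they were -0.0851, -0.0236, -0.147 and -0.171, and with batch Bhlha15 was -0.198 and Pdia4 -0.144. Pdia4 ran from -0.0921 to 0.116 with 1 gland left out.

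In ductal cells Xbp1 was -0.00678 without a filter, -0.442 with batch and -0.0526 in Klk1+-like cells alone. Library totals gave Hsp90b1 0.00729, Dnajb9 0.0656 and Herpud1 0.181, and Bhlha15 0.0449 in whole glands. Klk1+-like cells alone gave Hsp90b1 0.0281, progenitor-like cells alone Hspa5 0.143 and Herpud1 0.152, and resolution 0.7 Herpud1 0.0342. With cargo left out, the log2 difference of the summed level, acinar-like minus other, was 0.36 for ductal Klk1+-like, 0.56 for Smgc+/Esp4+-like, 0.39 for other basal-like, -1.25 for Egf+-like and -2.56 for Ig-producing-like cells, the last -2.77 in the 1 gland with at least 30 such cells. Over all UMIs, r with cargo share was -0.13 for Xbp1 in control glands and 0.26 for Hspa5 in DM glands (adjusted permutation p = 0.44).

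Library totals moved the median of all genes to 0.41 in basal-like cells (members 0.67), 0.12 in Smgc+/Esp4+-like cells (0.46), 0.20 for stage in control glands (0.17) and 0.22 in DM glands (0.24). Counts over all genes moved more. With library totals, calls higher and lower went from 450 and 76 to 711 and 17 for stage in control glands, from 102 and 67 to 829 and 15 in ductal cells, from 122 and 20 to 244 and 3 in basal-like cells and from 1499 and 794 to 5522 and 51 in whole glands. All genes called ran from 18 to 296 (64 as reported) in acinar-like, 8 to 844 (169) in ductal, 5 to 291 (142) in basal-like, 241 to 5573 (2293) in whole glands and 2 to 136 (43) in Smgc+/Esp4+-like cells, from 296 to 1301 (526) and 0 to 13 (0) for stage in control and DM glands, and from 0 to 134 (6) for genotype by stage. Intervals on counts cover counting error only, and few cells per gland limit the plasma and tumor cell levels.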
